A study of Mus musculus with 3 samples.

Results

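Low-carrier endoderm-like cells were barcodes of day 5 mouse blastoids that held the endoderm regulators Gata6, Sox17 and Gata4 but little RNA of the blood carrier genes Ttr, Rbp4, Apoa1 and Apoa2. A barcode entered with at least 10000 UMIs (unique molecules counted), at most 20% mitochondrial UMIs, a regulator sum of at least 100 CPM (UMIs of the genes per 1000000 UMIs of that barcode) with UMIs of at least 2 of the 3 regulators, and a carrier sum under 1000 CPM. There were 646 such cells among 3669 deep barcodes that passed the depth and mitochondrial limits, and among 18388 deposited barcodes. The other deep barcodes were 1025 carrier-high cells, with a carrier sum of 1000 CPM or more, and 1998 remaining cells, which are a mixture of the other lineages. These 7 genes chose the cells, so their values are given as a description with no test.

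Blastoids are cultured models of the blastocyst, built here from E14 mouse embryonic stem cells. These had been kept with 1000 U/mL LIF and 10 µM T0901317, an agonist of liver X receptors, and were seeded at 5 cells per microwell. All 3 libraries, called Type I, Type II and Type III, shared 12.5 ng/mL rhFGF4, 0.5 µg/mL heparin and 3 µM CHIR99021, with 2 µM Y-27632 on the first day, and 5 ng/mL BMP4 and 0.5 µM A83-01 after it. Blastoids were picked by hand on day 5 and digested for 30 min. The labels do not give what sets the types apart, and each type had 1 library.

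Primitive endoderm is the inner lineage of the blastocyst that faces the cavity. It is set by Gata6 under FGF signalling, it lays down a basement membrane of laminin and type IV collagen, and it gives rise to parietal endoderm, which lines the mural trophectoderm, and to visceral endoderm, which surrounds the epiblast and later makes serum carrier proteins such as apolipoproteins, transthyretin and alpha-fetoprotein. Low carrier RNA beside high regulator RNA was used here to pick cells of the lineage with little RNA of 4 of these carriers.

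Throughout, 3 values in a row are Types I, II and III in that order. The cells made up 18.1% (255 of 1405, exact 95% interval 16.2% to 20.3%), 17.7% (353 of 1992, 16.1% to 19.5%) and 14% (38 of 272, 10.1% to 18.7%) of deep barcodes, and these intervals, which cover counting error only, overlap. Carrier-high cells numbered 443, 563 and 19, so low-carrier cells outnumbered carrier-high cells in Type III and not in the other libraries. Median depth was 51034, 38656 and 91671 UMIs in low-carrier cells and 54589, 40808 and 92031 in carrier-high cells. Median mitochondrial shares were 4.29%, 4.98% and 4.72% against 4.85%, 5.84% and 6.16%.

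Some barcode sequences were listed in more than 1 library: 155 in Types I and II, 209 in Types I and III and 151 in Types II and III. Of the low-carrier cells 11, 5 and 28 had such a barcode, and for Type III that is 28 of 38. It was not particular to these cells, since 14 of 19 carrier-high and 119 of 215 remaining cells of Type III had one too. The copy was usually shallow. The 28 Type III cells had 50 copies, some of them in both other libraries, and over these 50 pairs the median was 1774 UMIs in the copy and 107719 UMIs in Type III. Without shared barcodes the Type III share was 9.01% (10 of 111, 4.41% to 15.9%), and the other shares were 18.1% and 17.7%.

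Gata6 was 141, 156 and 212 CPM in summed low-carrier cells, 65.4, 66.7 and 61.2 CPM in carrier-high cells and 3.51, 3.35 and 4.35 CPM in the remaining cells. Sox17 was 155, 155 and 150 CPM against 129, 125 and 140 CPM in carrier-high cells. Gata4 was 98.4, 82.7 and 88.9 CPM against 89.6, 86.3 and 97.9 CPM. Of the 3 regulators, Gata6 therefore set the classes apart most and Gata4 overlapped between them, although carrier-high cells did not have to pass the regulator limit. All 3 regulators had a UMI in 216, 272 and 29 low-carrier cells. Median carrier sums were 171, 136 and 55 CPM against 3341, 3600 and 3018 CPM in carrier-high cells.

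**Figure D1:**
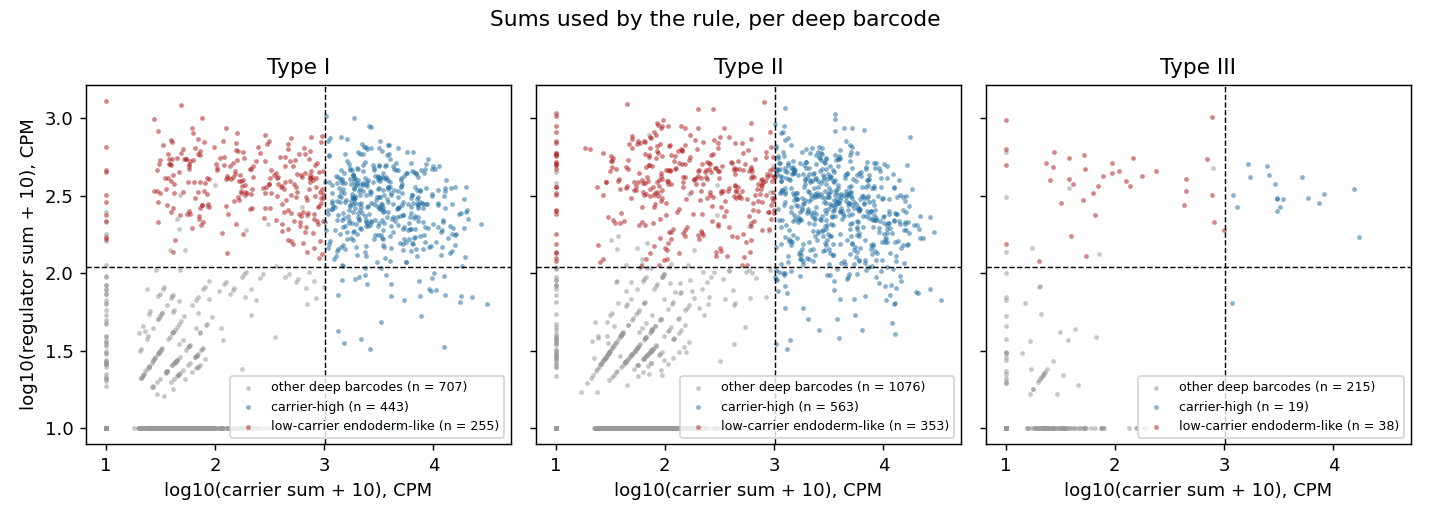
Carrier sum (Ttr, Rbp4, Apoa1, Apoa2) against regulator sum (Gata6, Sox17, Gata4) of each deep barcode, as log10 of CPM plus 10, with 1 panel per library and dashed lines at the limits of 1000 and 100 CPM. Low-carrier and carrier-high cells form a continuous band across the vertical line, and 54 low-carrier cells lie between 800 and 1000 CPM.

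The carrier limit cuts a continuum. The 54 low-carrier cells with carrier sums from 800 to 1000 CPM had 205, 312 and 92.2 CPM of Lama1, a laminin chain. The 74 carrier-high cells from 1000 to 1250 CPM had 231, 269 and 143 CPM. The Type III values rest on 2 cells on each side. At the regulator limit, 19 cells lay between 100 and 125 CPM, and 13 remaining cells with 2 or 3 regulators lay between 75 and 100 CPM. Another 46 remaining cells passed 100 CPM through 1 regulator alone.

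Counts were summed per library and class and compared with edgeR, with the library as a block. Calls of higher and lower need an adjusted p under 0.05 and a difference of at least 2-fold. The libraries are different types and stand in for replicates, so each p-value says how similar the difference between classes was in these 3. The classes were divided on values of the same cells, so a gene that varies with the regulators or the carriers had to differ, and the calls describe this division rather than test that the classes exist. Where all libraries are given for a gene, the values are CPM of summed UMIs.

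The 14 primitive endoderm markers that the rule did not use are described first. Of these, Lama1 and Srgn had been given for these cells beforehand. Genes that vary with the regulators had to differ from the remaining cells, so this is no check of the label. The markers summed to 8353 to 9297 CPM, against 6313 to 7673 CPM in carrier-high and 218 to 275 CPM in remaining cells. All 14 were called higher than in the remaining cells, by a median log2 fold change of 5.55 against 0.00 over the 13449 genes tested, of which 14.6% were called higher. Lama1, the laminin alpha chain of the early embryonic basement membrane, was 457, 459 and 512 CPM against 4.47, 5.76 and 2.83 CPM (log2 fold change 6.72 ± 0.17 SE, adjusted p = 9.2e-11). Srgn, the core protein of the proteoglycan serglycin, was 749, 848 and 1080 CPM against 7.85, 11.9 and 5.80 CPM (6.63 ± 0.22, adjusted p = 6.2e-10). For both genes every low-carrier sum lay far above every sum of remaining cells. The gene for the PDGF receptor of primitive endoderm, Pdgfra, was 127, 95.6 and 120 CPM against 1.84, 1.89 and 1.12 CPM (6.04 ± 0.14). Cubn, which encodes the endocytic receptor cubilin, was 652, 742 and 1059 CPM against 7.46, 12.2 and 4.94 CPM. Sox7, a later endoderm regulator, was higher by 5.39, the endocytic adaptor gene Dab2 by 5.66 and the pioneer factor gene Foxa2 by 4.58.

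Nanog and Sox2 were called lower than in the remaining cells. Nanog, a core pluripotency factor, was 4.6, 4.41 and 0.499 CPM against 78.6, 85.1 and 108 CPM (-4.44 ± 0.24). Sox2, its partner, was 5.79, 7.56 and 5.49 CPM against 94.9, 111 and 112 CPM (-4.00 ± 0.12). Of the 13 naive epiblast markers 10 were lower and 1 was higher, and 14.7% of all genes tested were called lower. The one called higher was Klf4, a Krüppel-like factor also counted among immediate early genes, at 94.4, 82.6 and 117 CPM against 26.4, 28.6 and 41.5 CPM (1.65). Of the 15 trophectoderm markers tested, 10 were lower and none was higher, with Tfap2c at -3.66 and Rhox9 at -3.51. The streak mesoderm gene T was 0.209, 0.736 and 0 CPM against 15.8, 22.0 and 9.76 CPM (-5.39). Without Type II the values of T and Tfap2c were -6.44 and -4.27.

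Lama1 and Srgn are also markers of parietal endoderm, so they do not tell early primitive from parietal endoderm. The summed parietal list ran from 5548 to 6021 CPM in low-carrier cells and from 4057 to 4135 CPM in carrier-high cells, with Thbd, the thrombomodulin gene of parietal endoderm, at 0 in Types I and III. Pth1r, the parathyroid hormone receptor gene known for its role in parietal endoderm, was 224, 177 and 185 CPM (6.01 over the remaining cells), and the plasminogen activator gene Plat was 32.5, 30.4 and 21.7 CPM (5.09). Neither was called against carrier-high cells. There 3 of the 10 parietal genes tested were higher (Lama1, Srgn and Snai1) and none was lower, and 2.93% of all genes tested were higher. The summed visceral endoderm list, without the genes of the rule, ran from 7145 to 7492 CPM against 13706 to 16705 CPM in carrier-high and 916 to 1254 CPM in remaining cells. The summed naive epiblast list ran from 1519 to 1990 CPM, against 566 to 736 and 3419 to 3753 CPM. Most of the low-carrier sums came from 1 gene, Dppa5a, at 1152, 1339 and 1531 CPM of 1519, 1691 and 1990 CPM. Its level is uncertain, as given below. The summed trophectoderm list ran from 1111 to 1578 CPM, against 1711 to 1806 and 1857 to 3752 CPM, with Elf5 at 0 in all 3 low-carrier sums. The 1578 CPM is Type III, where 5 cells without a Lama1 UMI weighed on the sum. Its marker Krt18 was 5201 CPM in these 5 and 430 CPM in the 33 with Lama1.

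**Figure D2:**
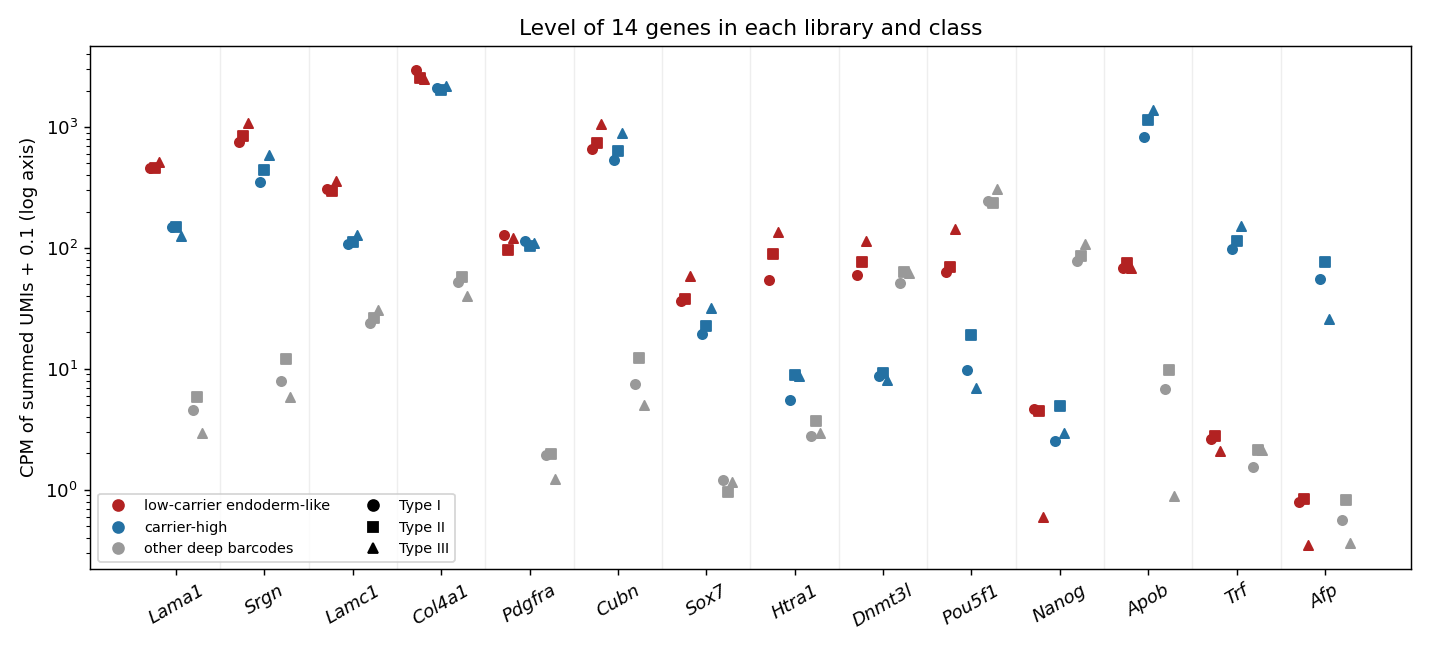
Level of 14 genes as CPM of summed UMIs plus 0.1, on a log axis, in low-carrier (red), carrier-high (blue) and remaining (grey) cells, with 1 marker shape per library. Lama1, Srgn and Lamc1 are highest in low-carrier cells, Pou5f1 lies between the other 2 classes, and Apob, Trf and Afp are high in carrier-high cells.

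At equal depth the share of cells with a UMI of a marker could be set side by side. After thinning every barcode to 10000 UMIs, Lama1 was found in 85.1%, 84.1% and 81.6% of low-carrier cells (exact 95% intervals 80.1% to 89.2%, 79.9% to 87.8% and 65.7% to 92.3%). It was found in 60.3%, 60.9% and 73.7% of carrier-high cells and in 4.67%, 5.30% and 2.33% of remaining cells, which mostly lack the regulators, at median depths before thinning of 51131, 43463.5 and 66477 UMIs. Carrier-high shares of Type III rest on 19 cells (48.8% to 90.9%). Without thinning the low-carrier shares were 95.3%, 94.1% and 86.8%. Srgn was found in 93.3%, 92.9% and 89.5% after thinning. Single cells varied widely: Lama1 ran from 0 to 3275, 3511 and 1487 CPM, with medians of 357, 368 and 316 CPM against 86.4, 89.3 and 97.0 CPM in carrier-high cells.

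Against carrier-high cells the low-carrier cells had more laminin, perlecan and serglycin RNA and more RNA of Htra1, Dnmt3l and Pou5f1, and far less RNA of liver-like secreted proteins, while most endoderm genes did not pass the call. In all 394 of 13449 genes (2.93%) were higher and 408 (3.03%) were lower. Without Type II 151 were higher and 227 lower, and without shared barcodes 424 and 402. Among genes with at least 50 CPM in the higher class the highest was Htra1, a secreted serine protease, at 53.8, 89.1 and 135 CPM against 5.45, 8.82 and 8.58 CPM (3.45 ± 0.17, adjusted p = 4.9e-07). The lowest by the same measure was Afp, the gene of the fetal serum protein alpha-fetoprotein, at 0.698, 0.736 and 0.250 CPM against 55.2, 77.0 and 25.8 CPM (-6.51 ± 0.15, adjusted p = 6.9e-10). The low-carrier sums of both genes did not overlap the carrier-high sums, which their choice by size nearly fixes. How many of all genes tested had no overlap was not counted, so here and elsewhere non-overlap is a description.

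Of the 14 primitive endoderm markers, 3 were higher and none was lower (median 0.35, against 0.01 over all genes tested). Lama1 was 147, 150 and 126 CPM in carrier-high cells (1.76 ± 0.13, adjusted p = 7.5e-06). Lamc1, the gamma chain of the same laminin, was 308, 296 and 358 CPM against 108, 111 and 128 CPM (1.49 ± 0.06, adjusted p = 1.6e-07). Srgn was 348, 438 and 585 CPM in carrier-high cells (1.01 ± 0.17, adjusted p = 0.0019) and lies at the 2-fold limit. Its value was 0.96 without Type I and 0.90 without the deepest 10% of barcodes of every class, both just under that limit. The other 11 ranged from -0.35 for Nid2, a nidogen gene, to 0.85 for Sox7, which was 36.1, 37.9 and 58.4 CPM against 19.4, 22.5 and 32.0 CPM. Pdgfra, at 113, 104 and 109 CPM in carrier-high cells, had a value of 0.07 ± 0.10, and the groups overlapped.

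Of the 19 basement membrane genes tested, 3 were higher and none was lower, with a median of -0.03. Besides Lama1 and Lamc1 this was Hspg2, the perlecan gene, at 163, 187 and 225 CPM against 72.6, 79.0 and 105 CPM (1.20 ± 0.06, adjusted p = 8.1e-07). The third chain of the trimer, Lamb1, was 578, 564 and 558 CPM against 352, 351 and 392 CPM (0.66), a difference under 2-fold in which the groups did not overlap. The collagen IV genes differed less. Col4a1 was 2976, 2542 and 2493 CPM against 2089, 2020 and 2194 CPM (0.36 ± 0.10), and Col4a2 was 1354, 1194 and 1164 CPM against 995, 912 and 1070 CPM (0.34 ± 0.07). Against the remaining cells these 2 collagen genes were higher by 5.76 and 5.44, and the list as a whole had 12 genes higher and 3 lower. In that comparison 14.6% of all genes tested were higher and 14.7% lower. Of the 29 genes for collagen folding and secretion, P4ha2, a collagen prolyl hydroxylase gene, was called higher over carrier-high cells (21.6, 34.3 and 46.2 against 9.23, 10.7 and 16.6 CPM, 1.48) and none was lower. Over the remaining cells 20 of the 29 were higher, led by the ER retention receptor gene Kdelr3 (5.02), P4ha1 (3.07), the lysyl hydroxylase gene Plod2 (2.99) and the collagen chaperone gene Serpinh1 (2.85).

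Promoters are shown for the collagen pair, whose start sites face each other, for the marker Srgn and for Afp, the lowest named gene. The sequences are from RefSeq, build GRCm38.p6, and run 5′ to 3′ on the gene's strand from 250 bases before to 50 after the annotated start. They lie at chr8:11312555-11312854 (+) for Col4a2, chr8:11312777-11313076 (-) for Col4a1, chr10:62527396-62527695 (-) for Srgn and chr5:90490464-90490763 (+) for Afp. Capitals mark matches, on either strand, to the GC box with the letters GGGCGG. They also mark the CCAAT box, which was searched by those letters on both strands. The last motif in capitals is the TATA box, searched as TATAAA.
Col4a2: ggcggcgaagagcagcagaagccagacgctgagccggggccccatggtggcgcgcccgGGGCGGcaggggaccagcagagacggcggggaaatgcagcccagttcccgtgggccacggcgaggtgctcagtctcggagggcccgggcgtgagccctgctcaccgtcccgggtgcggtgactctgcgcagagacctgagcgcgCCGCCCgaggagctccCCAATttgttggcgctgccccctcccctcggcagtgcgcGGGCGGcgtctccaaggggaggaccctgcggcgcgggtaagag
Col4a1: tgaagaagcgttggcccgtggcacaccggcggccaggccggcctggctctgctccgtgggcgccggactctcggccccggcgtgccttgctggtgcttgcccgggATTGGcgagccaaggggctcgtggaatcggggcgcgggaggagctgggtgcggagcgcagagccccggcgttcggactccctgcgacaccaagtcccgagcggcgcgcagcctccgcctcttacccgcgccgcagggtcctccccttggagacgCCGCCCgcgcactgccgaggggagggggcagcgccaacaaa
Srgn: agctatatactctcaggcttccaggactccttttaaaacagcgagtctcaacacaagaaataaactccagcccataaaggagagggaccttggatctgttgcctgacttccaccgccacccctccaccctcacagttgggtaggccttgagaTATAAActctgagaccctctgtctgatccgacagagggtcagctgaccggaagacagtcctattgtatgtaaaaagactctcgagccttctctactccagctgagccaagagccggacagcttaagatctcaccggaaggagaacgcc
Afp: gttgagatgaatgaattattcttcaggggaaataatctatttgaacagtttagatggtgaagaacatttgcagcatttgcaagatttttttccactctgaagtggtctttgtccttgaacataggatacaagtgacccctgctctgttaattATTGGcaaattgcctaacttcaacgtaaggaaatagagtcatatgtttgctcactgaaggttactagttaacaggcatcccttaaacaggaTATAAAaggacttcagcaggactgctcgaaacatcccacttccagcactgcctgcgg
The annotated starts of Col4a1 and Col4a2 lie 21 bases apart on opposite strands, so these windows overlap. The Col4a2 window held 3 GC boxes and 1 CCAAT box, and the Col4a1 window held 1 of each. The GC box of Col4a1 and the last one of Col4a2 are the same bases, read on opposite strands. The Srgn window held 1 TATA box and the Afp window 1 TATA box and 1 CCAAT box. A GATA motif (AGATAA), searched on both strands, was in none of the 4. Of 27025 promoters of this length, 35.9% held the GC box, 37.9% the CCAAT box, 14.2% the TATA box and 11.4% the GATA motif. Among the promoters of 10403 genes tested these shares were 65.5%, 39.2%, 6.89% and 6.0%. For 278 genes higher than in carrier-high cells they were 57.2%, 32.4%, 12.6% and 8.63%, and for 303 genes lower they were 49.2%, 33.7%, 11.9% and 10.2%. The differences between these shares were not tested, and a match describes letters and names no bound factor.

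Genes of lipoproteins and other liver secretions were mostly lower than in carrier-high cells and higher than in the remaining cells. Of the 21 lipoprotein and liver secretion genes tested, 14 were lower and none was higher (median -2.52), and 18 of the same 21 were higher than in the remaining cells (median 2.81). Over all genes tested 3.03% were lower than in carrier-high cells and 14.6% higher than in the remaining cells. Apob, the structural protein of lipoprotein particles, was 68.1, 75.4 and 68.4 CPM against 822, 1140 and 1383 CPM in carrier-high cells (-3.95 ± 0.34, adjusted p = 2.2e-05) and 6.69, 9.77 and 0.791 CPM in the remaining cells (3.48). The summed level lay between the other classes in each library, but it came from few cells: the median low-carrier cell had 0 CPM in every library, and those under 50 CPM of carriers summed to 2.88 and 6.77 CPM in Types I and II. The apolipoprotein M gene Apom had the same order, at 220, 193 and 190 CPM against 878, 844 and 941 CPM (-2.13) and 8.92, 11.5 and 1.78 CPM (4.67). Trf, the transferrin gene, was 2.51, 2.67 and 2.00 CPM against 97.1, 113 and 151 CPM (-5.45 ± 0.13), and Apoc2, a lipase cofactor gene, was 80.4, 78.0 and 50.4 CPM against 1304, 1534 and 1630 CPM (-4.42 ± 0.27). The levels of these 2 genes are uncertain, since 77.6% and 96.7% of 50-base windows at their transcript ends match other annotated transcripts. Fgb, a fibrinogen chain gene, was 1.46, 1.40 and 0.250 CPM against 37.3, 50.8 and 45.8 CPM (-5.10), and Spp2, a secreted phosphoprotein gene, had a value of -5.67. Fga, another fibrinogen chain gene, had no UMI in low-carrier cells of Types I and III. Apoe, the apolipoprotein E gene, differed by less than the call, at 4715, 5083 and 4600 CPM against 7782, 8435 and 9352 CPM (-0.81), and was higher than in the remaining cells by 2.39.

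Afp was at the level of the remaining cells (0.466, 0.720 and 0.264 CPM; 0.25, not called). After thinning it was found in 1.18%, 1.13% and 0% of low-carrier cells and in 15.6%, 21.5% and 0% of carrier-high cells. The Type III values are 0 of 38 and 0 of 19 cells, which allow up to 7.89% and 15.8% (3 cells each). Further genes named as lower were Dlk1, an imprinted Notch-family ligand (-2.92), the kinase gene Nrk (-2.66), the galectin gene Lgals2 (-2.61), the calcium carrier gene S100g (-2.59), the selenium carrier gene Selenop (-2.49), the secreted kinase gene Pkdcc (-2.08) and the organic anion exporter gene Abcc2 (-1.99). Each was lower in all 3 libraries. Spink1, a trypsin inhibitor gene, was 3498, 2582 and 2430 CPM against 8028, 6647 and 8162 CPM (-1.44), and higher than in the remaining cells by 5.28. Among imprinted genes 6 of 25 were lower and 1 was higher (median -0.46). H19, a growth-restraining non-coding RNA, was 666, 486 and 540 CPM against 1601, 1620 and 1962 CPM (-1.60 ± 0.09, adjusted p = 1.8e-06), and Plagl1, a zinc finger gene, had a value of -1.54.

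Pou5f1 and Dnmt3l were among the 12 highest named genes. Pou5f1, the pluripotency factor Oct4, was 62.6, 69.5 and 142 CPM against 9.77, 19.1 and 6.87 CPM in carrier-high cells (2.52 ± 0.26, adjusted p = 7.2e-05) and 245, 237 and 309 CPM in the remaining cells (-1.60). It lay between the other classes in every library, and its value was 3.15 without Type II, 2.33 without shared barcodes and 2.81 without the deepest 10% of barcodes. Dnmt3l, a cofactor of DNA methyltransferases, was 59.3, 75.7 and 115 CPM against 8.57, 9.17 and 8.01 CPM (3.09 ± 0.16, adjusted p = 7.5e-07). It was the 1 of 10 DNA methylation genes called, and its level in the remaining cells was 51.5, 63.2 and 62.4 CPM (0.46, not called). Dppa5a, an RNA-binding protein gene of pluripotent cells, was 1152, 1339 and 1531 CPM against 364, 446 and 345 CPM (1.82 ± 0.11). The level of Dppa5a is uncertain, since 47.8% of windows at its transcript end match other transcripts. Utf1, a chromatin factor gene of stem cells, was 55.9, 87.7 and 90.9 CPM against 20.9, 27.0 and 18.3 CPM (1.68 ± 0.12).

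Most other naive epiblast markers did not share this pattern. Nanog was 2.43, 4.86 and 2.86 CPM in carrier-high cells, which overlaps the low-carrier sums. Of the 13 markers 3 were higher (Pou5f1, Dppa5a and Esrrb) and 1, Tfcp2l1, was lower (-1.57). After thinning, Pou5f1 was found in 34.1%, 36.5% and 60.5% of low-carrier cells, in 5.64%, 11.5% and 15.8% of carrier-high cells and in 62.5%, 69.1% and 67.4% of remaining cells. Nanog was found in 3.92%, 3.12% and 0% of low-carrier cells (0 of 38 allows up to 7.89%, which is 3 cells) and in 33.9%, 38.4% and 42.8% of remaining cells. A UMI of Pou5f1 and one of Lama1 met in 381 of 646 cells (59.0%), and 293 of these 381 (76.9%) held no UMI of Nanog or Sox2. These cells were not thinned. In the same way a Pou5f1 UMI was found in 21.2%, 33.2% and 47.4% of carrier-high cells, and a Lama1 UMI in 16.4%, 16.4% and 12.6% of remaining cells, so 1 UMI alone does not show expression. The part of free RNA and of doublets, which were not removed, was not tested.

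**Figure D3:**
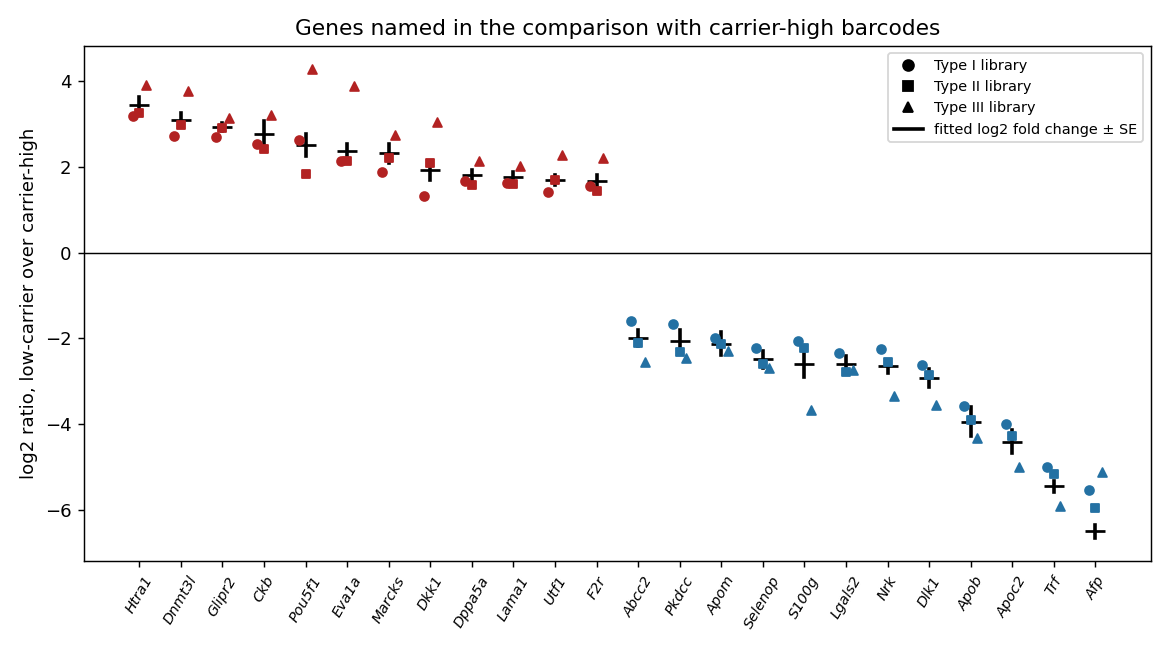
Log2 ratio of low-carrier over carrier-high cells for the 12 highest and 12 lowest named genes, with 1 point per library (after adding 0.5 CPM to both sums) and the fitted value with its SE in black. All 3 libraries lie on the same side of 0 for each gene, from Htra1 at 3.45 to Afp at -6.51, and the added 0.5 CPM draws the points of Afp towards 0.

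Among the remaining high genes were Glipr2 (55.3, 60.9 and 105 against 8.10, 7.72 and 11.4 CPM, 2.93 ± 0.09), a Golgi membrane protein gene, and Ckb, the brain-type creatine kinase gene (136, 217 and 400 against 23.1, 40.4 and 42.9 CPM, 2.78 ± 0.29). Marcks, an actin-regulating kinase substrate gene, was higher by 2.32, the autophagy-linked gene Eva1a by 2.37 and the thrombin receptor gene F2r by 1.68. For all 5 every low-carrier sum exceeded every carrier-high sum, which their choice by size and shared direction nearly fixes.

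Signalling genes are given by list, as counts of single-gene calls. For these and later lists, the shares over all genes tested were 2.93% higher and 3.03% lower against carrier-high cells. Against the remaining cells they were 14.6% and 14.7%. Of 24 FGF and ERK genes 3 were higher and none was lower (median 0.02). The ligand gene Fgf10 was 9, 10.9 and 28.0 CPM against 1.24, 1.69 and 0 CPM (3.11 ± 0.43, adjusted p = 0.00049). The ligand gene Fgf3 was 4.53, 5.62 and 6.99 CPM against 0.363, 0.510 and 0 CPM (3.71 ± 0.37, adjusted p = 5.4e-05). Both were low and in few cells: Fgf10 had a UMI in 9.80%, 9.63% and 13.2% of thinned low-carrier cells and in 0.677%, 1.78% and 0% of carrier-high cells (0 of 19 allows up to 15.8%, again 3 cells). Against the remaining cells 8 of the 24 were higher and 8 lower. The receptor genes Fgfr3 and Fgfr4 were higher by 4.43 and 4.27, and the ligand gene Fgf4 was lower by a value of -4.34, which was -5.80 without Type I.

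Of 18 WNT genes 3 were higher and 2 lower than in carrier-high cells (median -0.07). Dkk1, a secreted WNT inhibitor, was 76.7, 119 and 145 CPM against 30.2, 27.8 and 17.2 CPM (1.92 ± 0.21, adjusted p = 0.00013), and Sp5, a WNT target factor, was 6.00, 7.96 and 2.00 CPM against 20, 16.6 and 40.6 CPM (-1.74). Without Type II the value of Sp5 was -2.45, and the calls of Wnt6 and Sfrp5 were lost (1.01 and -0.72). Without Type I Wnt6 had 3.17, and Sfrp5 lost its call there too (-1.59). Against the remaining cells 8 of the 18 were lower and 4 higher (median -0.94), among the latter the ligand gene Wnt11 (5.03). Dkk1 is also a marker of anterior visceral endoderm, whose summed list ran from 98.4 to 178 CPM against 47.3 to 49.3 CPM in carrier-high and 109 to 151 CPM in remaining cells, with Cer1 at 0 in Types I and III. Dkk1 alone gave most of that sum in low-carrier cells. None of 14 Nodal and TGFb genes and none of 6 Hedgehog genes was called against carrier-high cells, where edgeR gave 6 and 2 genes at an unadjusted p under 0.05 and any size, and DESeq2 called 0 and 0. Against the remaining cells 9 Nodal and TGFb genes were lower and 1 higher, and 4 of the 6 Hedgehog genes were lower and 1 higher (median -1.56). The higher one was Ihh, the Hedgehog ligand gene of endoderm, at 46.2, 44.0 and 46.0 CPM against 1.26, 1.12 and 0.462 CPM (5.42 ± 0.16). Of 17 BMP genes 3 were lower, among them the BMP target Id2 at 97.2, 77.1 and 78.7 CPM against 199, 170 and 149 CPM (-1.03). Its value without Type II was -0.98, under the limit. The other BMP calls, of Bmp7 and Smad6, rested on few UMIs and were lost without Type II (-1.52 and -1.06), Bmp7 also without Type I (-2.20).

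Of 21 endoderm transcription factor genes 1 was higher and 3 lower than in carrier-high cells (median 0.20). Klf5, a Krüppel-like factor of the early embryo, was 164, 193 and 212 CPM against 83.6, 89.2 and 81.3 CPM (1.11 ± 0.11). Maf, a basic leucine zipper factor, was 48.2, 39.5 and 36.7 CPM against 97.7, 103 and 123 CPM (-1.30 ± 0.16). The others lower were Id2 and Foxa1, and Foxa1 was near 1 CPM and lost its call without Type I or Type II. Over the remaining cells Tfec, a basic helix-loop-helix factor, was higher by 6.59 (7.24 without Type II) and Foxq1, a forkhead factor, by 5.70.

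Of 20 genes for endocytosis and the lysosome, 1 was lower than in carrier-high cells and 17 were higher than in the remaining cells. The lower one was Ctsh, a cathepsin, at 262, 244 and 202 CPM against 531, 582 and 765 CPM (-1.37 ± 0.21). On the retinoid list 2 of 8 genes tested were lower than in carrier-high cells and none was higher. Among the lower ones was Rdh10, a retinol dehydrogenase, at 21.5, 18.7 and 20 CPM against 44.0, 46.2 and 54.4 CPM (-1.19). Against the remaining cells 4 of 8 retinoid genes were higher and 4 lower. Cyp26a1, one of the higher ones, which breaks down retinoic acid, was 63.8, 62.1 and 48.2 CPM and 4.70 over the remaining cells. Of 13 LXR target genes 1 was lower, Mylip, which tags the LDL receptor for breakdown, at 12.8, 9.63 and 10.5 CPM against 28.1, 30.7 and 40.6 CPM (-1.47), and 8 were higher than in the remaining cells. Of 24 cholesterol synthesis genes 13 were higher than in the remaining cells. Over all genes tested 14.6% were higher and 14.7% lower than in the remaining cells. Against carrier-high cells these shares were 2.93% and 3.03%. A single lower gene in a list of 13 or 20 is near them, and 2 of 8 retinoid genes is above them.

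Cell cycle genes were not called between the endoderm classes. None of 20 S phase, 20 G2 and M phase and 10 G1 cyclin and brake genes passed, with medians of 0.08, 0.32 and 0.10. At an adjusted p under 0.05 without the 2-fold limit, which 10.2% of all genes passed as higher and 11.1% as lower, 0, 14 and 3 of them differed, at an unadjusted p under 0.05 3, 17 and 4, and DESeq2 called 0, 0 and 0. Ube2c, a mitotic ubiquitin enzyme, was 285, 243 and 309 CPM against 213, 196 and 145 CPM (0.59), and the brake Cdkn2a was 114, 111 and 105 CPM against 163, 179 and 205 CPM (-0.67), both under 2-fold with groups that did not overlap. Snai1, a driver of the epithelial to mesenchymal transition, was 7.05, 6.49 and 7.99 CPM against 2.62, 3.41 and 2.86 CPM (1.22), and Fn1, the fibronectin gene, was 74.6, 65.6 and 81.4 CPM against 169, 172 and 195 CPM (-1.26). These were the 2 calls among 19 epithelial and mesenchymal genes. Of 18 protease and inhibitor genes 3 were higher and 2 lower. The metalloprotease inhibitor gene Timp1 had 1.54 and the metalloprotease gene Adamts1 -1.79. Of the 19 immediate early and dissociation genes, Hspa1a (2.26) and Hspa1b (1.24) were higher than in carrier-high cells, and both were highest in Type II, at 14.2 and 12.3 CPM. Without Type II their values were 1.52 and 0.67, and the call of Hspa1b was lost.

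**Figure D4:**
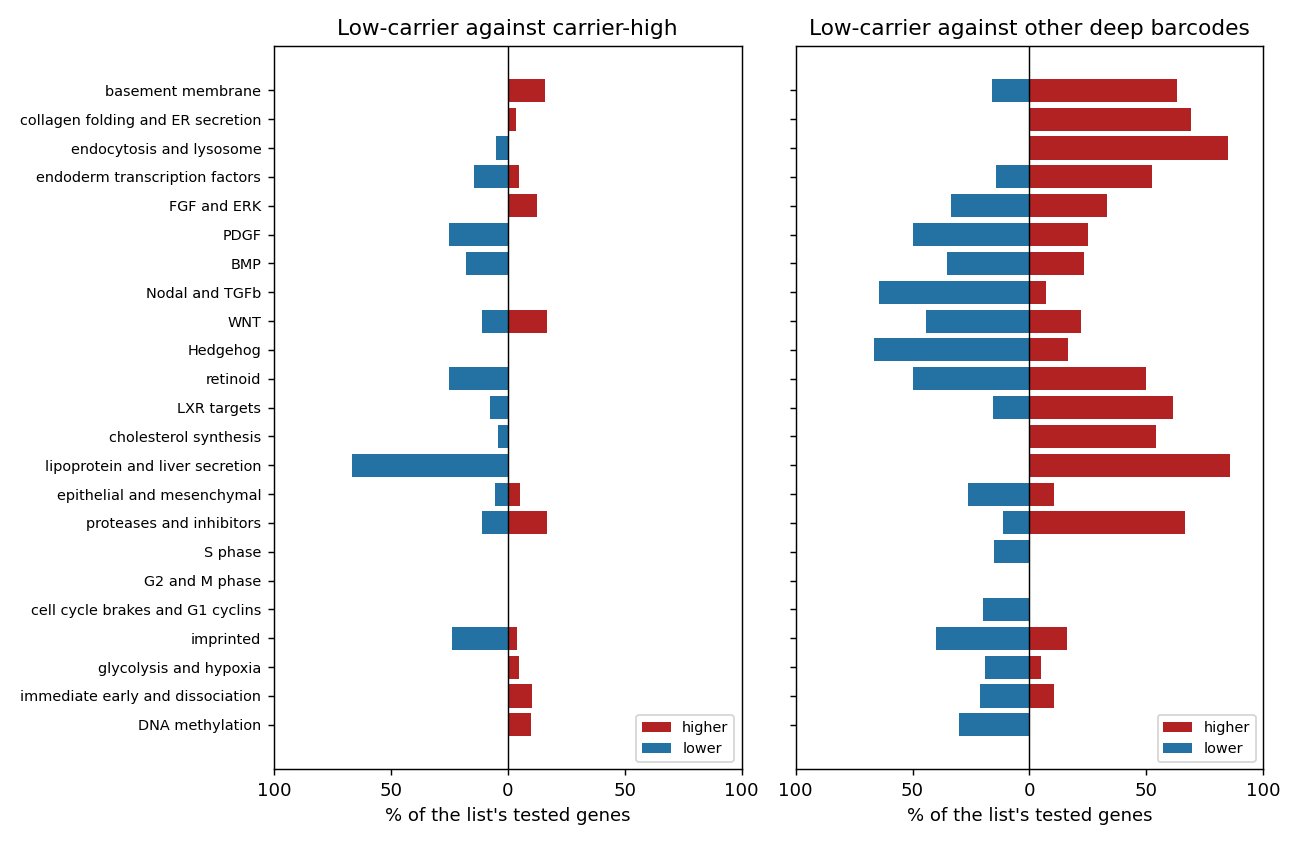
Share of each list's tested genes called higher (red, right) or lower (blue, left) in low-carrier cells, against carrier-high cells in the left panel and against the remaining cells in the right panel. Lipoprotein and liver secretion is the list with the largest lower share on the left (14 of 21) and has 18 of 21 higher on the right, while 2.93% and 3.03% of all genes were called on the left and 14.6% and 14.7% on the right.

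Within the low-carrier cells levels shifted with the carrier sum. Barcodes were grouped by carrier sum, and UMIs summed per library and group, so the intervals are Poisson intervals that cover counting error only. From the lowest group (under 50 CPM, 59 and 75 cells of Types I and II) to the highest (500 to 1000 CPM, 66 and 68 cells), Pou5f1 was 153 CPM (139 to 167) and then 11.6 CPM (8.41 to 15.5) in Type I. It was 134 CPM (122 to 147) and then 18.1 CPM (13.6 to 23.5) in Type II. At the highest group Pou5f1 was thus already near its level in carrier-high cells. Htra1 went from 108 to 24.2 CPM and from 137 to 25.3 CPM, and Dnmt3l from 110 to 17.6 CPM and from 126 to 33.2 CPM. Lama1 changed less among low-carrier cells, from 505 to 350 CPM and from 457 to 413 CPM, and was 74.9 and 75 CPM in carrier-high cells above 5000 CPM. Gata6, a gene of the rule, went from 213 to 84.9 CPM and from 201 to 90.0 CPM.

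Other genes had larger values in groups with more carrier RNA. Cited1, a transcriptional co-regulator gene chosen after its values were seen, went from 230 to 1237 CPM and from 204 to 1023 CPM, and Apob from 2.88 to 197 CPM and from 6.77 to 258 CPM. H19 went from 143 to 1169 CPM in Type I and from 485 to 894 CPM in Type II, where the second group had 154 CPM. In Type II, 21 low-carrier cells had no Lama1 UMI, with a median carrier sum of 45.1 CPM. Without them H19 in all summed Type II low-carrier cells was 412 in place of 486 CPM. The groups were not summed without them. Col4a1 was 2532 and 3171 CPM in the lowest and highest low-carrier groups of Type I, and 1463 CPM in carrier-high cells above 5000 CPM. Sox17 showed little change, at 159 and 153 CPM in Type I. The low-carrier groups of Type III held 18, 7, 5, 3 and 5 cells and are too thin to give an order.

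**Figure D5:**
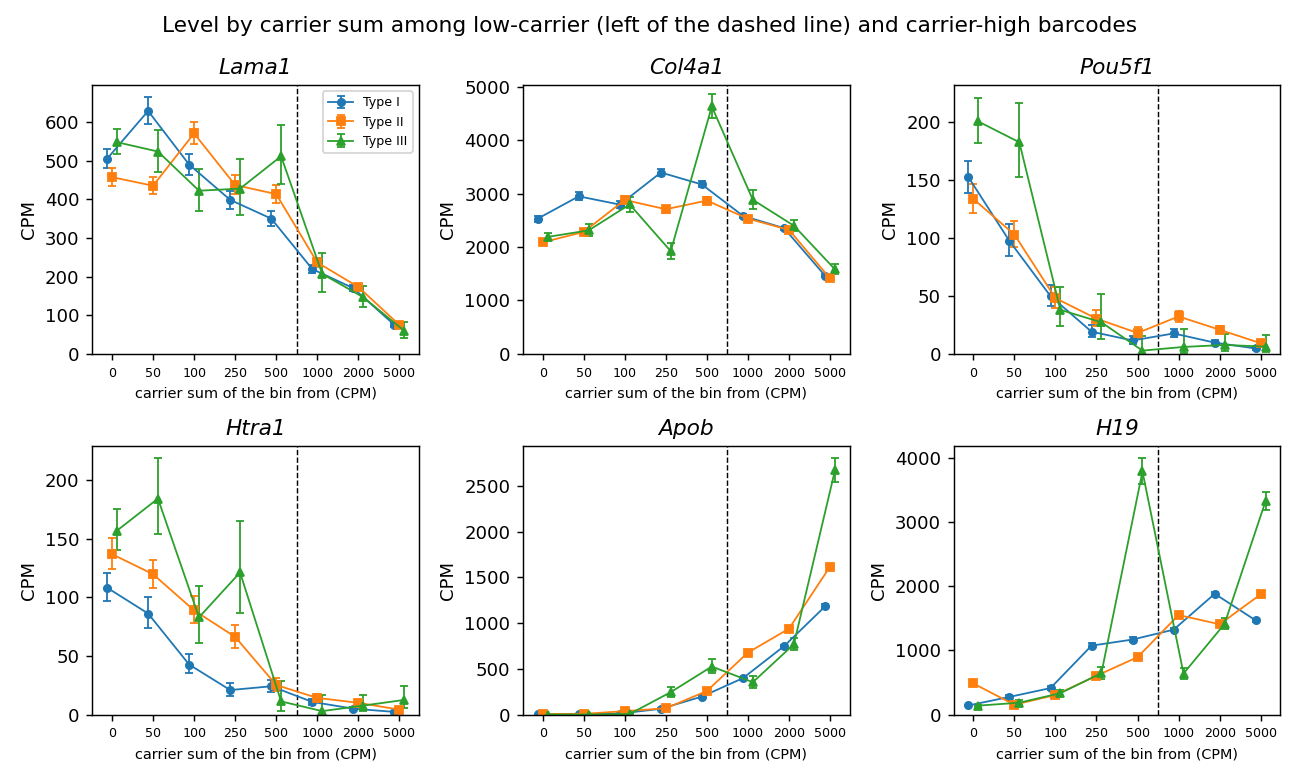
Level of 6 genes in CPM against the lower bound of each carrier sum group, for low-carrier (left of the dashed line) and carrier-high cells, with 1 line per library and exact 95% Poisson intervals as bars. In Types I and II Pou5f1 and Htra1 are lower and Apob is higher in groups with more carrier RNA, while the Type III groups hold few cells and scatter.

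Not every low-carrier cell had the markers. There were 38 cells (12, 21 and 5) with no UMI of Lama1, of which 22 also lacked Srgn. Their median depths were 13301, 27732 and 14378 UMIs, against 51828, 39297 and 91909 in those with Lama1. Several genes of other cell types had larger values in them. Gata2, a trophoblast and blood regulator, was 93.2, 542 and 344 CPM against 5.46, 6.73 and 1.88 CPM in low-carrier cells with Lama1. The endothelial cadherin gene Cdh5 was 72.0, 39.8 and 168 CPM against 0.993, 0.981 and 0.537 CPM. The keratin gene Krt18 was 1101, 2596 and 5201 CPM against 612, 708 and 430 CPM. Of the 38, 4 had at least 3 UMIs each of the endothelial genes Cdh5, Kdr and Pecam1, and none of the 608 with Lama1 did. The division by Lama1 was made after its values were seen and has no test.

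The few cells without Lama1 carried several calls. Against carrier-high cells, 6 of 15 trophectoderm markers and 2 of 5 blood or endothelial markers were higher. Without the 38 cells Gata2 went from 1.70 to -0.07 (adjusted p = 0.91), Anxa1, an annexin gene, from 2.98 to 1.70 (adjusted p = 0.068) and Kdr, a VEGF receptor gene, from 4.35 to 1.58 (adjusted p = 0.090). The galectin gene Lgals3 was still called, at 1.45 in place of 2.45. Single libraries weighed on these genes as well: without Type II Gata2 had 1.04 and lost its call, and without Type I it had 2.31. Without Type I Kdr had 5.09 and Lgals3 3.36, and without Type III they had 3.67 and 1.81. Htra1, Dnmt3l and Pou5f1 had values of 3.50, 3.12 and 2.54 without the 38 cells, so they did not rest on them. The genes called were then 331 higher and 437 lower in place of 394 and 408.

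Low-carrier cells of Types I and II differed little. None of 2667 genes that reached 50 CPM in Type I or Type II was 2-fold apart (on CPM plus 10 CPM, with 1 library each and no test). Between Types III and I, 14 of 2811 (0.498%) were higher in Type III and 7 (0.249%) lower. Between Types III and II these were 13 of 2769 (0.469%) and 1 (0.0361%). Against Type I, Pou5f1 was 142 against 62.6 CPM, Ckb 400 against 136 CPM, Hes1, a Notch target gene, 233 against 93.8 CPM and Htra1 135 against 53.8 CPM. Cited1 was 351 against 800 CPM. These 5 kept their order without shared barcodes, at 260, 442, 406 and 101.5 CPM for Pou5f1, Ckb, Hes1 and Htra1 and at 414 CPM for Cited1 in the 10 Type III cells left. Others did not: Anxa1 and Igf2, at 65.2 and 57.9 CPM in Type III, had no UMI in these 10 cells. The unnamed genes Gm42418 and AY036118 turned their order, from 5892 against 15690 CPM to 37390 against 16950 CPM and from 216 against 458 CPM to 1530 against 486 CPM. Some differences, those of Anxa1 and Igf2 included, rested on few cells. The imprinted gene Mest was 165 against 17.4 CPM and the protease inhibitor gene Ctla2a 65.7 against 0.279 CPM. Without the 5 Type III cells that lacked Lama1, Mest was 7.52 CPM and Ctla2a 0.268 CPM in Type III. Anxa1 was then 0.805 CPM and Igf2 3.22 CPM. Genes in this paragraph other than those of the rule for named genes were chosen after their values were seen.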

How the data were processed

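Gene expression was measured with 10x 3' v3.1 libraries, 1 for each blastoid type. The authors deposited whole UMI counts for each gene in each barcode. Per the file headers these came from Cell Ranger 6.0.1, and the submitters' processing notes name build mm10. The sources used here do not give the rule for calling cells. There are 32285 genes and 18388 barcodes. No doublet caller was run and doublets were not removed.

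Counts were summed over the barcodes of each library and class, giving 9 sums. Genes passing filterByExpr were fitted with edgeR 4.0.16 (R 4.3.3) by its quasi-likelihood test with TMM scaling, the library as a block and Benjamini-Hochberg adjustment over 13449 genes. The 7 genes of the rule stayed in library sizes and were not tested. Class sums of 1 library come from the same cells' preparation, which is where the pairing comes from. The fit was checked on simulated counts. CPM was computed from the deposited counts over all genes. Low-carrier cells held 14336198, 14953556 and 4004221 UMIs in Types I, II and III. Shares of cells were thinned to 10000 UMIs, and intervals are exact Clopper-Pearson or Poisson. Intervals were made with scipy 1.17.1 in Python 3.11.15.

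The members, gene lists and tests were chosen with earlier results of these data known. Named genes were, for each comparison, the 12 highest and 12 lowest called genes with at least 50 CPM in the higher class and the same direction in all 3 libraries, up to 4 genes of each list by size, and the primitive endoderm markers. Mitochondrial, ribosomal, sex-linked marker and unnamed genes were left out. Nothing in the labels says that the libraries came from separate cultures, so p-values measure only the spread between them. Alternatives were DESeq2 1.42.0, other scaling, no filter, no block, single libraries left out, thinning and other limits of the rule. Some results are not reported here.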

Additional observations from a re-analysis of the deposited data

Results flagged for a closer look

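Barcodes with 1000 to 10000 UMIs were left out of all comparisons, and some of them met the regulator and carrier limits. Their Lama1 level, a signal in data that no comparison used, was 206 CPM in Type I (125 barcodes, exact 95% Poisson interval 169 to 247), 154 CPM in Type II (131 barcodes, 123 to 192) and 125 CPM in Type III (46 barcodes, 80.2 to 186). Lama1 was 64.7, 67.5 and 57.0 CPM in the other shallow barcodes of the same libraries, so each was above that level. The regulators divided these barcodes, so a gene that varies with the regulators had to differ, and this is no check of the label. Median depths were 3848, 3508 and 3545 UMIs against 1643.5, 1697 and 1670 UMIs. The part of free RNA in these values was not tested.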

How the results depend on the processing

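Leaving out 1 library at a time gave 151 to 410 genes higher and 227 to 437 lower than in carrier-high cells, with the fewest without Type II, where 344 of 802 calls were kept. Thinning every barcode to 10000 UMIs gave 224 and 251 (363 kept), and 1080 lower than in the remaining cells (2265 of 3941 kept). Both leave fewer UMIs or samples by construction. Without the library block, which pairs the classes, 349 and 378 genes were called against carrier-high cells and 1961 and 1959 against the remaining cells. DESeq2 gave 353 and 350, and 1752 and 2042.

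The Type I share was 13.5% with a carrier limit of 500 CPM, 25.9% with 2000 CPM, 15.4% with all 3 regulators required and 13.4% when thinned before the rule. In Type II these were 14.3%, 23.9%, 13.7% and 13.2%, and a regulator limit of 200 CPM gave 14.9%. In Type III the share was 9.01% without shared barcodes. Without low-carrier cells that lacked Lama1, Gata2 over carrier-high cells was -0.070, and Kdr and Cdh5 over the remaining cells were -1.41 and -0.46. This setting and the one on shared barcodes were chosen after seeing the data. These 3 were the called genes whose direction turned under an alternative run. Uncalled named genes, most of them with few UMIs, turned too. Over carrier-high cells and leaving out 1 library at a time, Lefty1 ran from -2.10 to 3.35, Fgf8 from -3.27 to 0.72, Evx1 from -1.91 to 1.85, Gm21761 from -0.025 to 5.64, Abcg1 from -0.22 to 2.69, Pdgfc from -0.62 to 0.60, Cxcr4 from -0.47 to 0.12, Trh from -0.12 to 0.53, Pdgfa from -0.0019 to 0.33 and Rrm2 from -0.015 to 0.36. Over the remaining cells Gm21761 ran from -7.16 to 1.03, and was 0.96 when thinned, 0.081 without the deepest 10% of barcodes and 0.62 without shared barcodes. Over carrier-high cells Pdgfc was -0.091 by DESeq2 and -0.076 without members high in naive epiblast or trophectoderm markers, Id4 -0.074 when thinned and Rrm2 -0.089 without shared barcodes. Without the deepest 10% Foxa2 was 0.031 and Lefty2 -1.20. Without cells that lacked Lama1, Pecam1 was -0.20, Gm21761 -0.47, Pdgfc -0.37 and Gli1 -0.11. Except where given, the cause was not tested. Calls of low genes (Bmp7, Smad6, Wnt6, Sfrp5, Foxa1) were lost without a single library.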
